A study of Homo sapiens with 12 samples.

Results

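The genes described here are 38 genes of the unfolded protein response and of the ATF4 stress response, taken by name from a list and found among the 38516 genes of the deposited table. All 38 names were in the table, and 36 reached the level set for testing, an RPKM (reads per exon length and library total) of at least 0.5 in at least 3 libraries. Expression was measured by RNA sequencing of bulk total RNA from KYSE150 and KYSE510, established lines derived from human squamous cell carcinoma of the esophagus. Each line was grown in serum-supplemented RPMI medium as control cells and as cells with HCP5, a long non-coding RNA gene, silenced. Each of the 4 groups held 3 libraries. Library titles start with the letters sh, not explained in the labels, and the labels do not say whether a silenced line was 1 clone, nor whether replicates came from separate cultures. The p-values therefore measure only the spread between these libraries, which may be technical. In bulk RNA, fewer cells of a kind and less RNA per cell cannot be told apart.

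The endoplasmic reticulum (ER) folds proteins that are to be secreted or placed in membranes. When unfolded proteins build up in it, the ER membrane proteins IRE1 (gene ERN1), ATF6 and PERK (gene EIF2AK3) start the unfolded protein response. IRE1 splices the mRNA of XBP1 and ATF6 is cut to release a transcription factor, and both raise chaperones and the machinery that removes misfolded proteins. PERK slows translation and favours translation of ATF4, a transcription factor that raises amino acid synthesis and, under lasting stress, DDIT3 (CHOP). Other kinases, such as those that sense amino acid shortage, reach ATF4 by the same step. Splicing of XBP1, cleavage of ATF6 and translation of ATF4 are not seen in gene-level RPKM.

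Matches to the letters of known regulatory sequences of these branches are shown first. Windows from 250 bases before to 50 bases after a start of each gene, from RefSeq on GRCh38.p14, were found for 35 of the 38 members. Other starts of a gene were not searched, and the CANX window lies inside that gene, whose exons begin at chr5:179678628. The matches given below for HSP90B1, CRELD2, CHAC1 and ASNS also lie inside the span of that gene's exons as counted. No window was found for PDIA3, PSPH and SHMT2. The ER stress response element (ERSE: CCAAT, 9 bases, CCACG, either strand), which ATF6 and XBP1 bind with NF-Y, was in 6 members, 17.1% of those matched and 0.0769% of all 35116 windows. The members were HSPA5, HSP90B1 with 2 copies, CALR, CANX, CRELD2 and XBP1. The elements of HSPA5 (chr9:125241386-125241414, minus strand), XBP1 (chr22:28800598-28800626, minus strand), CANX (chr5:179698773-179698801, plus strand) and CRELD2 (chr22:49918549-49918577, plus strand) are given in the direction of the gene. Capitals mark the CCAAT and CCACG letters, and CRELD2 carries them on the opposite strand.
HSPA5: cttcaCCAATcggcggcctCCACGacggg
XBP1: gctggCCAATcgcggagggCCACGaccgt
CANX: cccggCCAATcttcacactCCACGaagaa
CRELD2: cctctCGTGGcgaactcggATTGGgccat

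The related ERSE-II (ATTGG, 1 base, CCACG, either strand) was in HYOU1 with 2 copies, SDF2L1 and HERPUD1, 8.57% of matched members and 0.0541% of all windows. Capitals mark those letters in HERPUD1 (chr16:56932017-56932043, plus strand) and in the copy of HYOU1 nearer its start (chr11:119057266-119057292, minus strand).
HERPUD1: ggacgccgATTGGgCCACGttgggaga
HYOU1: gcctgggaCGTGGtCCAATgagtacgc

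The core letters of a further element bound by XBP1, TGACGTG on either strand, were in 1 member, HYOU1, 2.86% of matched members and 1.97% of all windows, and there they overlapped its other ERSE-II. The composite element that ATF4 binds with a C/EBP partner, searched as TGATGNAA on either strand, was in HERPUD1, ATF3, CHAC1 and ASNS, 11.4% of matched members and 3.62% of all windows. The composite elements of ASNS (chr7:97872461-97872484, minus strand), CHAC1 (chr15:40953254-40953277, plus strand) and ATF3 (chr1:212565208-212565231, plus strand) are shown with the fixed letters in capitals. A match describes the letters in a window and is not a measured binding site.
ASNS: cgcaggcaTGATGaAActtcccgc
CHAC1: ccctgccgTTgCATCActcctgcc
ATF3: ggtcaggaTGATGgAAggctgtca

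Depth ran from 20035025 to 28202422 reads per library, every KYSE150 silenced library being deeper than every KYSE150 control, and members took 0.593% to 0.850% of reads. HCP5 itself, the check of the labels, was at 0.779, 0.745 and 0.786 RPKM in KYSE150 controls against 0.315, 0.418 and 0.579 in silenced KYSE150 libraries. KYSE510 controls had 0.914, 1.85 and 1.40 RPKM, and silenced KYSE510 libraries 0.505, 0.951 and 0.948. Each of the 6 silenced libraries had less HCP5 than its same-numbered control, but limma's adjusted p was 0.267 in KYSE150 and 0.646 in KYSE510. With the replicate number as a block, limma gave HCP5 an adjusted p of 0.0556 in KYSE150, 0.134 in KYSE510 and 0.0295 averaged over the lines. Squamous epithelial markers summed to 558 to 2241 RPKM, mostly from KRT5 and KRT17, while DSG3 was at 2.77 to 6.31 RPKM. Of the fibroblast markers 4 of 5, and of the endothelial 2 of 3, were below 0.5 RPKM in every library. The other endothelial marker, CDH5, reached 2.03 RPKM in KYSE510 silenced replicate 1. Of 4 immune markers, 3 were below 0.5 RPKM everywhere, the remaining one being CD68.

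With HCP5 silenced, none of the 36 tested members was called in either line. Changes are given as log2(RPKM + 0.5), silenced minus control, from limma with Benjamini-Hochberg adjustment over 17823 genes and a threshold of 0.05. In KYSE150 the member changes ran from -0.40 (PPP1R15A) to 0.60 (TRIB3), with 20 above 0, 16 below 0 and a median of 0.04, beside 0.08 over all genes. In KYSE510 they ran from -0.38 (ASNS) to 0.24 (PPP1R15A), with 12 above 0, 24 below 0 and a median of -0.06, beside -0.02 over all genes. Of all 17823 genes, 11777 were above 0 in KYSE150 and 10116 below 0 in KYSE510. The share of all genes called was 0.499% in KYSE150 and 0.0393% in KYSE510, so few calls were made anywhere. An unadjusted p under 0.05 was reached by 7 members in KYSE150 (19.4%, beside 18.1% of all genes) and 3 in KYSE510 (8.33%, beside 6.35%). Averaged over both lines, 0 members were called where 0.539% of all genes were, and 3 had an unadjusted p under 0.05 (8.33%, beside 11.5%). ERN1 is among the 7 in KYSE150 and the 3 averaged over both lines, and it reached the testing level only through the KYSE150 controls. For the difference between the changes in the 2 lines, 0 members were called where 0% of all genes were, and 7 had an unadjusted p under 0.05 (19.4%, beside 12.2%).

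On the log2(RPKM + 0.5) scale, which understates the change of low genes, the 95% intervals of all 36 tested members lay within 1 log2 unit of 0 in both lines, with a median reach of 0.30 log2 units to either side. In KYSE150, 29 of the intervals included 0, and in KYSE510, 33 did. Changes above or below 0 in KYSE150 depend on scaling: centring each library on its median moved the median of all genes there by -0.13, to -0.05. The same centring took the median of the members to -0.09, with 14 above 0 and 22 below 0.

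**Figure D1:**
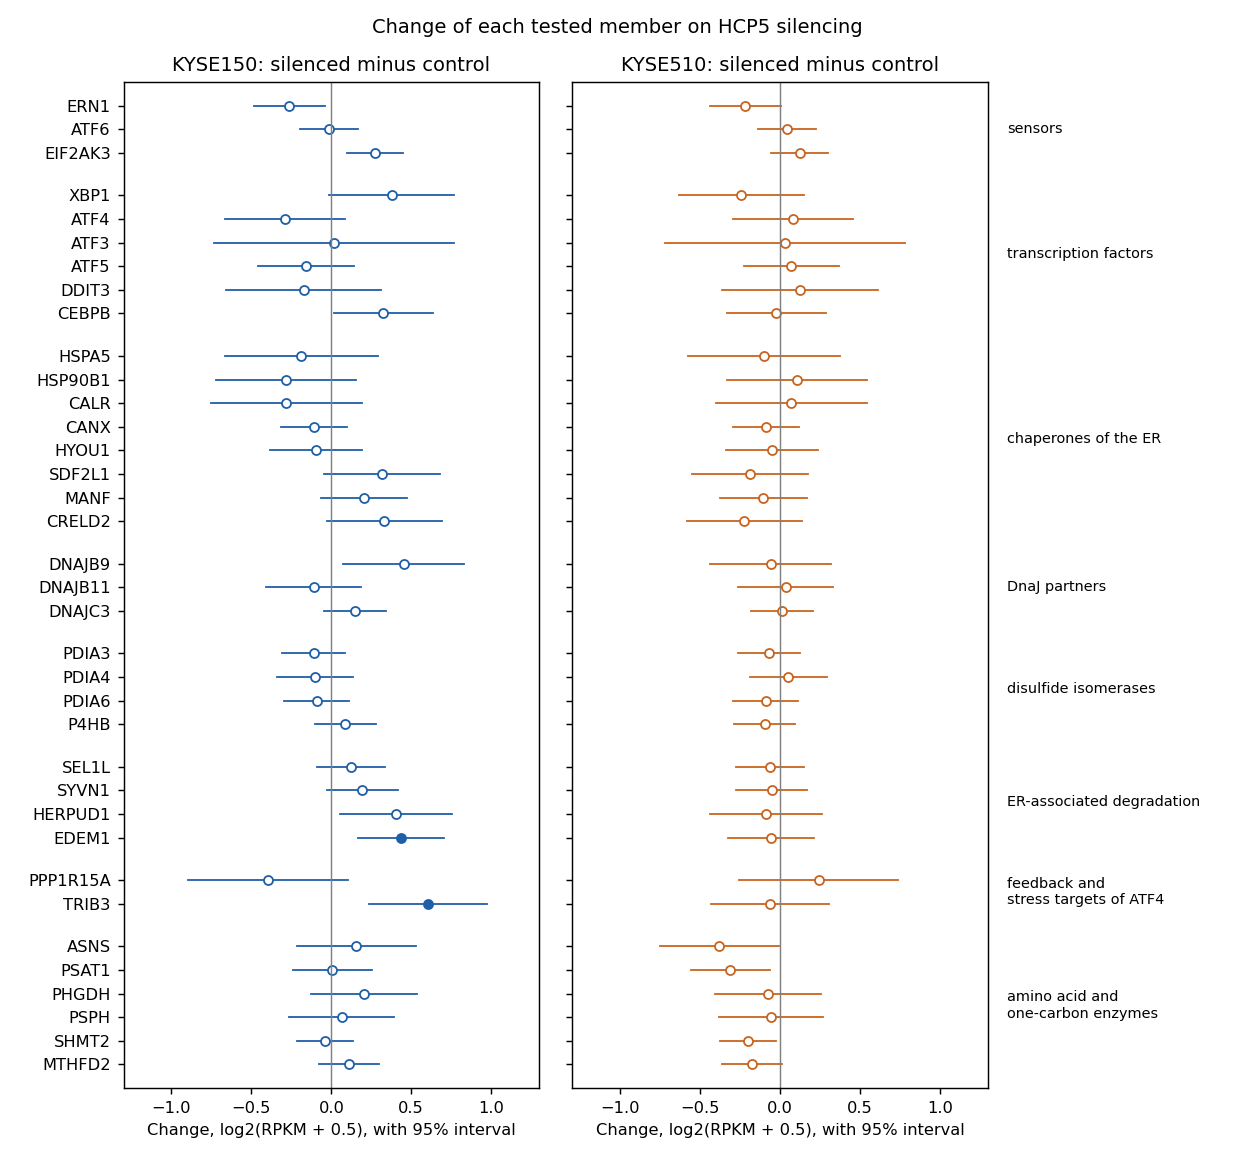
Change with HCP5 silencing for each of the 36 tested members on the log2(RPKM + 0.5) scale, one panel per line, with points for the fitted change and bars for the 95% interval. Members are grouped by role, and filled points mark an adjusted p under 0.05 in limma with the replicate block, which are EDEM1 and TRIB3 in KYSE150. The bars are from the fit without the block.

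Replicate numbers were taken to pair the control and silenced libraries within a line, an inference from these same libraries. Fitting them as a block changed 2 calls. In KYSE150, EDEM1 rose by 0.43 with an adjusted p of 0.0363 and TRIB3 rose by 0.60 with an adjusted p of 0.0437 in the blocked limma fit. The same fit called 5.04% of all genes higher in KYSE150, so 2 of 36 members is a share near that background. In KYSE510 the blocked fit called 0 members (0.112% of all genes), averaged over lines 0 (2.74%) and for the difference 0 (0%). Without KYSE150 control replicate 3, the unblocked fit called 3 members, DNAJB9, EDEM1 and TRIB3, with adjusted p of 0.0440, 0.0287 and 0.0326, where it called 7.22% of all genes.

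The reads behind the RPKM could be recovered, and limma's voom weights on those reads together with the block called more. In KYSE150 this fit called 10 members where it called 19.0% of all genes. DNAJB9, HERPUD1, EDEM1, XBP1, EIF2AK3 and TRIB3 were higher after silencing in it and HSP90B1, ERN1, ATF4 and PPP1R15A lower. Averaged over the lines it called 2 members, EIF2AK3 higher and ERN1 lower, where it called 7.27% of all genes. ERN1, in both of these lists, reached the testing level only through the KYSE150 controls, so its calls are a description. For the difference between lines it called 7 members, HSP90B1, EDEM1, XBP1, ATF4, PPP1R15A, TRIB3 and ASNS, where it called 7.59% of all genes.

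A simpler count asked for which members every silenced library lay on one side of every control. In KYSE150 the 5 members DNAJB9, CRELD2, SEL1L, EDEM1 and EIF2AK3 lay higher (13.7% of all genes did) and the 2 members ERN1 and ATF5 lower (5.47%). In KYSE510 the 1 member EIF2AK3 lay higher (5.22%) and the 5 members ERN1, ASNS, PSAT1, SHMT2 and MTHFD2 lower (6.87%). Of the 36 members, these counts are 13.9% and 5.56% in KYSE150 and 2.78% and 13.9% in KYSE510. By numbered pairs, 27.8% of members were higher in all 3 pairs of KYSE150 and 25.0% lower, beside 37.4% and 13.7% of all genes. In KYSE510, 2.78% were higher in all 3 pairs and 25.0% lower, beside 16.0% and 21.8% of all genes. One member, EIF2AK3, was higher in all 6 pairs, and the 2 members PDIA6 and ERN1 were lower in all 6. These are 2.78% and 5.56% of members, beside 6.70% and 2.77% of all genes. Because ERN1 reached the testing level only through the KYSE150 controls, its place in these counts is a description.

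Among the sensors, EIF2AK3, which encodes PERK, was at 2.81, 2.76 and 3.06 RPKM in controls of KYSE150 and 3.61, 3.42 and 3.72 after silencing. The KYSE510 values were 2.55, 2.61 and 2.45 RPKM for controls against 3.08, 2.68 and 2.66 with HCP5 silenced. The silenced libraries lay above the controls in both lines with no overlap. Its fitted change was 0.27 ± 0.08 (log2, SE) in KYSE150, limma adjusted p 0.138, and 0.12 ± 0.08 in KYSE510, adjusted p 0.912. Exons of EIF2AK3 share 15.1% of their bases with genes on the opposite strand, and the use of strand in counting is not given in the sources used here.

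ERN1, which encodes IRE1, was low, at 0.579, 0.538 and 0.624 RPKM in KYSE150 controls against 0.424, 0.372 and 0.406 in silenced KYSE150 libraries. For KYSE510, controls read 0.390, 0.353 and 0.385 RPKM and silenced libraries 0.188, 0.262 and 0.314. Controls lay above silenced libraries in both lines with no overlap, on 49 to 154 reads per library. ERN1 reached the testing level only through the KYSE150 controls, where it was highest, so its changes against that group (-0.26, limma adjusted p 0.221) are a description. ERN1 is named here after its values were seen. ATF6, the third sensor, was at 4.53 ± 0.161 (SD, n = 3) RPKM in KYSE150 controls against 4.49 ± 0.182 after silencing, and at 5.50 ± 0.578 and 5.66 ± 0.189 in KYSE510.

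**Figure D2:**
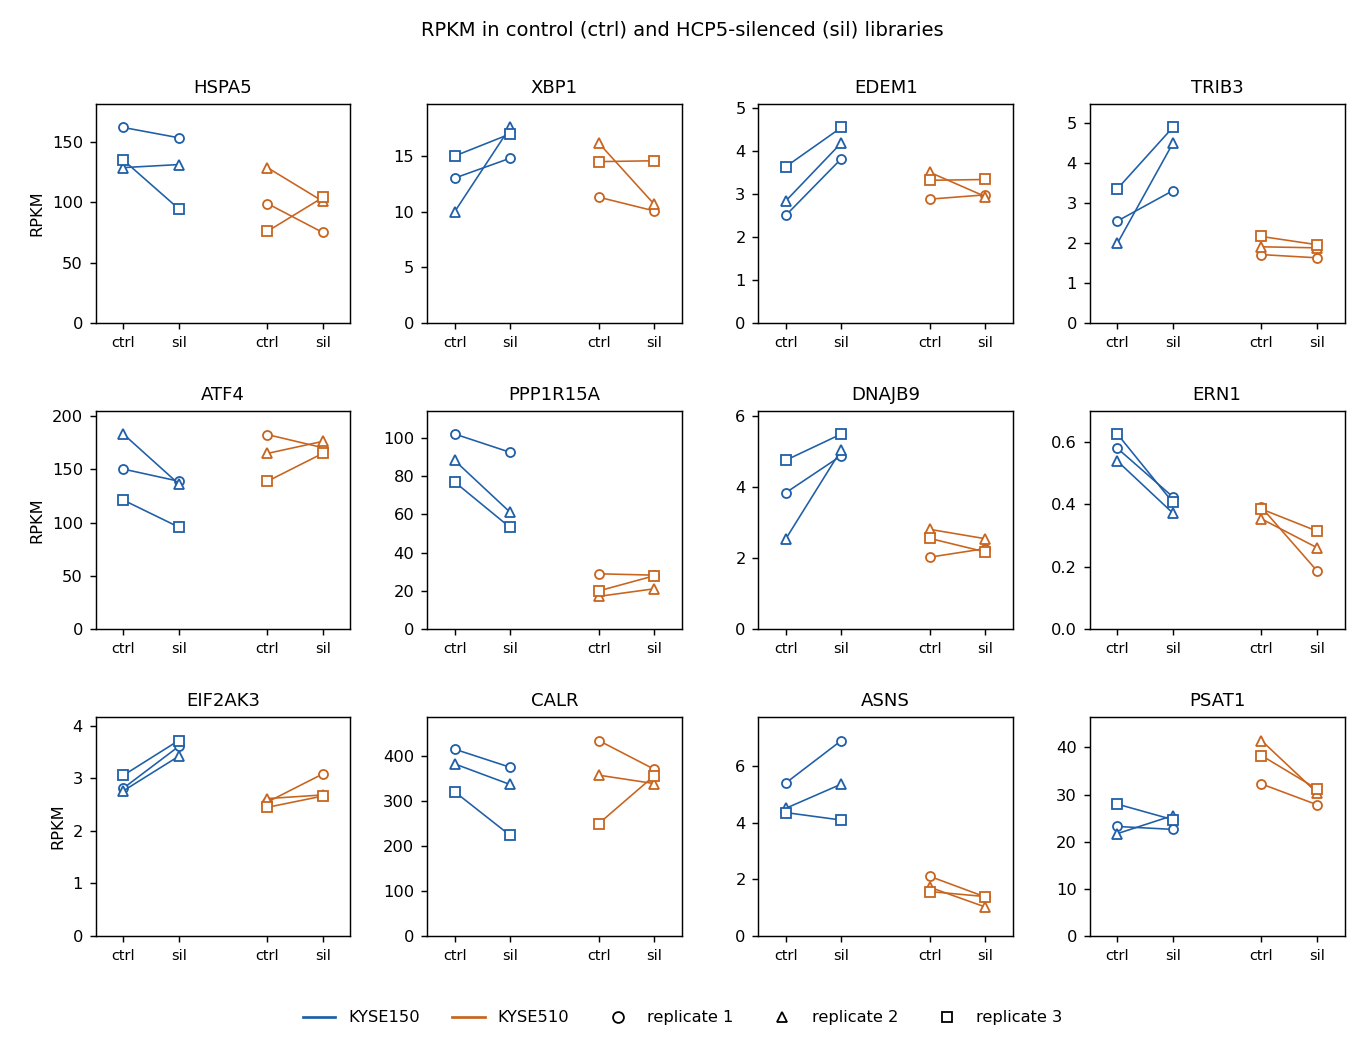
RPKM of 12 members in each library, one panel per gene with a linear axis from 0, colours for the lines, symbols for replicate numbers and lines joining same-numbered control and silenced libraries. EIF2AK3 is higher in every silenced library than in every control of the same line, and the silenced libraries of ASNS in KYSE510 lie below all 3 controls.

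Of the transcription factors, XBP1 was at 13.0, 10.0 and 15.0 RPKM in controls of KYSE150 and 14.8, 17.6 and 17.0 after silencing. KYSE510 controls had 11.3, 16.2 and 14.5 RPKM, and silenced KYSE510 libraries 10.1, 10.7 and 14.6. All 3 pairs of KYSE150 were higher after silencing but the groups overlapped, and in KYSE510 they overlapped more widely. The change was 0.38 ± 0.18 (log2, SE) in KYSE150, limma adjusted p 0.287, and -0.24 ± 0.18 in KYSE510, adjusted p 0.925. The difference between the lines, KYSE510 minus KYSE150, was -0.62 with a 95% interval of -1.18 to -0.07 and an adjusted p of 0.396.

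ATF4 RNA was abundant, at 150.1, 183 and 121 RPKM in KYSE150 controls against 139, 136 and 95.8 in silenced KYSE150 libraries. The KYSE510 values were 182, 165 and 139 RPKM for controls against 170.1, 176 and 165 with HCP5 silenced. Each silenced library of KYSE150 was below its same-numbered control, with overlap between groups, and replicate 3 was the lowest of each group of that line. The change was -0.29 ± 0.17 (log2, SE) in KYSE150, limma adjusted p 0.382, and 0.08 ± 0.17 in KYSE510, adjusted p 0.978.

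DDIT3, which encodes the stress factor CHOP, was at 6.66, 8.12 and 6.92 RPKM in controls of KYSE150 and 6.97, 8.46 and 4.28 after silencing. For KYSE510, controls read 6.40, 5.06 and 3.88 RPKM and silenced libraries 6.02, 5.87 and 4.73. The groups overlapped in both lines, and silenced replicate 3 was the lowest KYSE150 library. Its change was -0.17 (95% interval -0.66 to 0.31, limma adjusted p 0.710) in KYSE150 and 0.12 (-0.36 to 0.61, adjusted p 0.975) in KYSE510. DDIT3 shares 28.0% of its exon bases with MARS on the opposite strand.

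ATF3, ATF5 and CEBPB, transcription factors of the stress response and partners of ATF4 or its targets, had larger differences between control lines than with silencing. ATF3 had the widest spread of these, at 10.3, 9.66 and 5.05 RPKM in KYSE150 controls against 11.96, 10.4 and 4.16 in silenced KYSE150 libraries. Replicate 3 was the lowest library in both KYSE150 groups, and the interval of the change in that line ran from -0.73 to 0.77. ATF5 was at 23.4, 20.1 and 21.4 RPKM in controls of KYSE150 and 19.8, 19.1 and 19.0 after silencing, lower without overlap, and its change of -0.16 had a limma adjusted p of 0.551. CEBPB was at 8.06, 6.85 and 7.97 RPKM in KYSE150 controls against 9.26, 12.1 and 8.02 in silenced KYSE150 libraries, a change of 0.33 with an adjusted p of 0.260.

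The chaperones of the ER, their DnaJ partners and the disulfide isomerases, 15 members, hold most of the abundant RNA of the list. HSPA5, which encodes the lead chaperone BiP, was at 162, 129 and 135 RPKM in controls of KYSE150 and 153, 131 and 94.6 after silencing. KYSE510 controls had 98.9, 129 and 75.9 RPKM, and silenced KYSE510 libraries 75.0, 101 and 104. The groups overlapped in both lines, and silenced replicate 3 was the lowest KYSE150 library. The change of HSPA5 was -0.19 (95% interval -0.66 to 0.29, limma adjusted p 0.675) in KYSE150 and -0.10 (-0.58 to 0.38, adjusted p 0.978) in KYSE510.

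CALR, the glycoprotein chaperone calreticulin, was at 416, 383 and 321 RPKM in KYSE150 controls against 376, 337 and 224 in silenced KYSE150 libraries. The KYSE510 values were 435, 358 and 249.99 RPKM for controls against 371, 339 and 356 with HCP5 silenced. Each KYSE150 silenced library was below its same-numbered control, yet the groups overlapped, and KYSE510 controls spanned more than its silenced libraries. Its change was -0.28 ± 0.21 (log2, SE; limma adjusted p 0.498) in KYSE150 and 0.07 ± 0.21 (adjusted p 0.992) in KYSE510. HSP90B1 (GRP94) was at 315 ± 59.5 RPKM (SD, n = 3) in KYSE150 controls and 261 ± 64.0 after silencing, and CANX (calnexin) was at 221 ± 11.7 and 206 ± 23.9.

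Several less abundant ER helpers had changes above 0 in KYSE150, though none passed the threshold: DNAJB9, CRELD2, SDF2L1 (0.31), MANF (0.20) and DNAJC3 (0.15). DNAJB9, a DnaJ partner of BiP also known as ERdj4, was at 3.85, 2.56 and 4.77 RPKM in KYSE150 controls against 4.90, 5.06 and 5.50 with HCP5 silenced, with no overlap. For KYSE510, controls read 2.04, 2.82 and 2.56 RPKM and silenced libraries 2.28, 2.55 and 2.18, with overlap. The change was 0.45 ± 0.17 (log2, SE; limma adjusted p 0.218) in KYSE150 and -0.06 ± 0.17 (adjusted p 0.988) in KYSE510. CRELD2, an ER stress-inducible secreted protein, was at 3.19, 2.39 and 3.68 RPKM in controls of KYSE150 and 3.73, 4.40 and 3.77 after silencing, again with no overlap. Its change in KYSE150 was 0.33 (95% interval -0.03 to 0.69) with an adjusted p of 0.308.

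The members that share an ERSE did not share a sign. In KYSE150 the changes of HSPA5, HSP90B1, CALR and CANX were -0.19, -0.28, -0.28 and -0.11, and those of CRELD2 and XBP1 were 0.33 and 0.38, none past limma's threshold. Of the ERSE-II members there, HYOU1 was at -0.09, SDF2L1 at 0.31 and HERPUD1 at 0.41. The 3 tested members with a composite element, ATF3, ASNS and HERPUD1, were at 0.02, 0.16 and 0.41.

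Single libraries held many of the lowest or highest values of the folding members. KYSE150 silenced replicate 3 was the lowest of the 6 KYSE150 libraries for 9 of the 15 chaperones, DnaJ partners and isomerases (60.0%), beside 9.55% of all genes. KYSE150 control replicate 1 was the highest for 9 of the 15, beside 8.70% of all genes. In KYSE510, silenced replicate 2 was the lowest for 7 of the 15 (46.7%), beside 18.9% of all genes. Control replicates 1 and 2 of KYSE510 were each the highest for 6 (40.0%), beside 9.39% and 22.0% of all genes. The summed RPKM of the 15 was 1637, 1474 and 1360 in KYSE150 controls against 1516, 1416 and 1084 after silencing. KYSE510 controls had sums of 1635, 1491 and 1226, and silenced libraries of that line 1522, 1371 and 1434. Summed squamous markers were at 2241 RPKM in KYSE150 silenced replicate 3 and 864 to 1131 in the other silenced libraries of the line, although CDH1 among them was lower there, at 33.1 RPKM against 39.3 and 42.0. KYSE510 silenced replicate 3 had a marker sum of 2036 RPKM too, 1480 of it from KRT17. Its folding sum, 1434, was not the lowest of its group. The part of these markers in the result was not tested. Without KYSE150 silenced replicate 3 the change of HSPA5 in KYSE150 was 0.01 in place of -0.19.

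**Figure D3:**
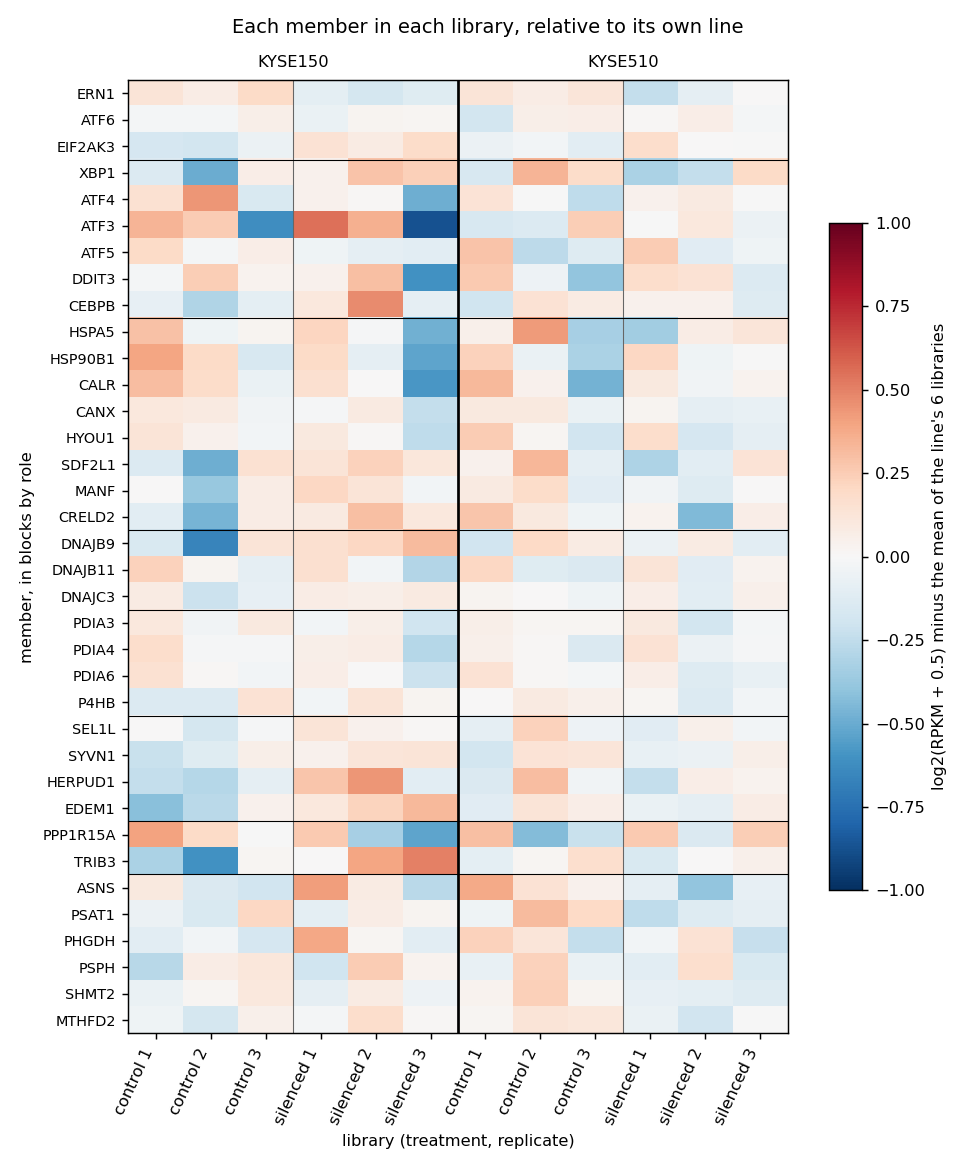
Deviation of each tested member in each library from its mean over the 6 libraries of the same line, on the log2(RPKM + 0.5) scale, members in rows by role and libraries in columns. KYSE150 silenced replicate 3 is the lowest library of its line for 9 of the 15 chaperones, DnaJ partners and isomerases, while EDEM1, TRIB3 and DNAJB9 are at their highest there.

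Genes of ER-associated degradation, which returns misfolded proteins to the cytosol for destruction, were all above 0 in KYSE150 and all below 0 in KYSE510. Most genes lay on the same sides, 11777 of 17823 above 0 in KYSE150 and 10116 below 0 in KYSE510. The 4 members had a median change of 0.30 in KYSE150 and -0.06 in KYSE510, and on centring SEL1L turned to -0.01 in KYSE150. EDEM1, which helps to extract misfolded glycoproteins, was at 2.51, 2.85 and 3.64 RPKM in KYSE150 controls against 3.83, 4.20 and 4.55 in silenced KYSE150 libraries. KYSE510 controls had 2.88, 3.51 and 3.32 RPKM, and silenced KYSE510 libraries 2.99, 2.94 and 3.34. The KYSE150 groups did not overlap and the KYSE510 groups did. The change was 0.43 ± 0.12 (log2, SE; limma adjusted p 0.128) in KYSE150 and -0.06 ± 0.12 (adjusted p 0.978) in KYSE510. Between lines the changes differed by -0.49 (95% interval -0.87 to -0.11), with an adjusted p of 0.394. HERPUD1, a stress-induced part of the same machinery, was at 2.36 ± 0.202 RPKM in KYSE150 controls and 3.33 ± 0.711 (SD, n = 3) in silenced libraries.

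Of the feedback and stress targets of ATF4, PPP1R15A and TRIB3 lay at opposite ends of the list in KYSE150. TRIB3, a pseudokinase induced by ATF4 and DDIT3, was at 2.54, 1.99 and 3.35 RPKM in controls of KYSE150 and 3.30, 4.48 and 4.88 after silencing. The KYSE510 values were 1.71, 1.90 and 2.16 RPKM for controls against 1.63, 1.88 and 1.95 with HCP5 silenced. All 3 KYSE150 pairs were higher after silencing with slight overlap between groups, and all 3 KYSE510 pairs were lower. TRIB3 had a change of 0.60 ± 0.17 (log2, SE; limma adjusted p 0.125) in KYSE150 and -0.06 ± 0.17 (adjusted p 0.988) in KYSE510.

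PPP1R15A (GADD34), which restores translation by directing removal of the phosphate that PERK adds, was at 102, 88.0 and 76.9 RPKM in KYSE150 controls against 92.3, 61.1 and 53.2 in silenced KYSE150 libraries. For KYSE510, controls read 29.004, 17.2 and 20.1 RPKM and silenced libraries 28.3, 21.2 and 28.0. Silenced libraries were below their same-numbered controls in KYSE150, with overlap between the groups in both lines. The change was -0.40 ± 0.23 (log2, SE; limma adjusted p 0.370) in KYSE150 and 0.24 ± 0.23 (adjusted p 0.945) in KYSE510. The ATF4 target CHAC1, which degrades glutathione, was at 0.0180 to 0.142 RPKM on 1 to 7 reads per library, and no difference was detectable at this depth. VLDLR, a lipoprotein receptor raised by ATF4, was at 0.138 to 0.509 RPKM, and neither gene was tested.

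The amino acid and one-carbon enzymes, which ATF4 raises to supply serine, glycine, folate units and asparagine, were all below 0 in KYSE510, with a median change of -0.19. Their values in KYSE150 were above 0 for 5 of 6 as deposited and for 2 of 6 after centring, while the KYSE510 signs held under both other scalings. As deposited, 11777 of all 17823 genes were above 0 in KYSE150 and 10116 below 0 in KYSE510. ASNS, asparagine synthetase, was at 2.10, 1.71 and 1.57 RPKM in KYSE510 controls and 1.38, 1.02 and 1.39 in silenced libraries. In KYSE150, controls had 5.40, 4.50 and 4.35 RPKM against 6.89, 5.36 and 4.09 after silencing. The KYSE510 groups did not overlap and the KYSE150 groups did. The change was -0.38 ± 0.17 (log2, SE; limma adjusted p 0.775) in KYSE510 and 0.16 ± 0.17 (adjusted p 0.646) in KYSE150.

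PSAT1, of the serine pathway, was at 32.2, 41.5 and 38.3 RPKM in KYSE510 controls and 27.9, 30.4 and 31.2 in silenced libraries, with no overlap. In KYSE150, controls had 23.2, 21.7 and 28.0 RPKM against 22.6, 25.5 and 24.7 after silencing, with overlap. The fitted log2 change of PSAT1 was -0.31 ± 0.11 (SE) in KYSE510, which did not pass limma's threshold (adjusted p 0.633), and 0.00 ± 0.11 in KYSE150. SHMT2 and MTHFD2, mitochondrial enzymes of the folate cycle, were at 24.1 ± 2.03 and 28.9 ± 1.21 RPKM (SD, n = 3) in KYSE510 controls. Their silenced values in that line were 20.9 ± 0.333 and 25.5 ± 1.72, both without overlap, and their limma adjusted p were 0.702 and 0.819. MTHFD2 shares 33.2% of its exon bases with genes on the opposite strand.

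Levels of the 38 members spanned a wide range within a library. Among KYSE150 controls, mean RPKM ran from 0.102 (CHAC1) to 373 (CALR), and among KYSE510 controls from 0.0775 (CHAC1) to 348 (CALR). The sensors were low, at 0.580 to 4.53 RPKM in KYSE150 and 0.376 to 5.50 in KYSE510. The disulfide isomerases were uniformly high, at 56.9 to 92.9 RPKM in KYSE150 and 68.3 to 100.2 in KYSE510. Degradation genes were at 2.36 to 16.5 RPKM and 1.29 to 16.0 in the same order. ATF4 RNA, at 151 ± 30.9 RPKM (SD, n = 3) in KYSE150 controls and 162 ± 22.0 in KYSE510 controls, was the most abundant of the 6 transcription factors in both lines.

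**Figure D4:**
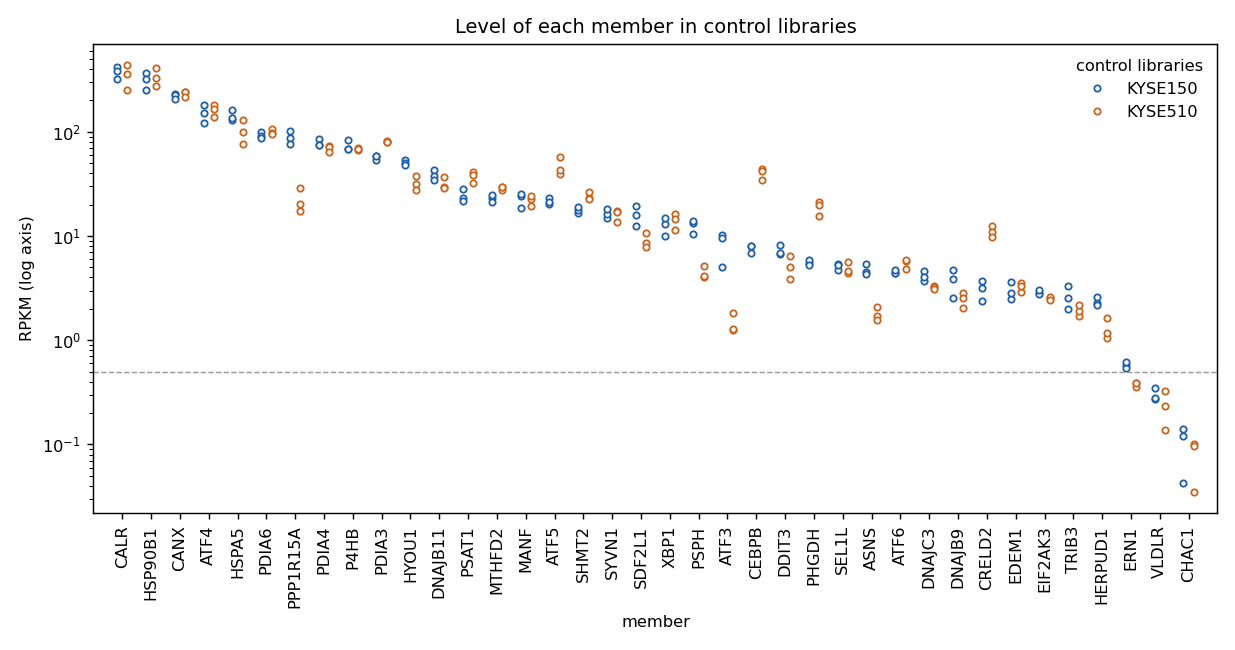
RPKM of all 38 members in the 6 control libraries on a log axis, members ordered by their level in KYSE150, with a point per library and colours for the lines. The dashed line marks the testing level of 0.5 RPKM, and CHAC1 lies below it in every library.

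Many more members were called between the control lines than for silencing. Limma called 19 of the 36 tested members between the controls, beside 62.0% of all genes. Of these, 9 were higher in KYSE510 (28.3% of all genes were) and 10 higher in KYSE150 (33.7%), so the members' share is not above the background. ERN1 is among the 10 and reached the testing level only through KYSE150, which leaves 18 of 35 members (51.4%), 9 in each direction. Under the same restriction 58.1% of all genes were called, 3864 of 15637 higher in KYSE510 and 5225 higher in KYSE150. Fold changes are KYSE510 minus KYSE150, with a median of -0.08 over the members and -0.07 over all genes.

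Of the members, CEBPB differed most in favour of KYSE510, at 34.3, 43.7 and 41.8 RPKM in its controls against 8.06, 6.85 and 7.97 in KYSE150 controls. The groups lay far apart, a ratio of mean RPKM of 5.23 and a fitted difference of 2.31 ± 0.14 (log2, SE; limma adjusted p 8.98e-08). CEBPB shares 11.8% of its exon bases with its antisense gene CEBPB-AS1. CRELD2 was at 12.4, 10.8 and 9.82 RPKM in KYSE510 controls against 3.19, 2.39 and 3.68, a ratio of 3.57 and a difference of 1.69 ± 0.16 (adjusted p 3.89e-06). PHGDH, the entry enzyme of serine synthesis, was at 21.4, 19.9 and 15.4 RPKM against 5.54, 5.90 and 5.28, a ratio of 3.40 and a difference of 1.67 ± 0.15 (adjusted p 2.4e-06). ATF5 was at 57.4, 39.2 and 43.1 RPKM against 23.4, 20.1 and 21.4, a ratio of 2.15 and a difference of 1.07 ± 0.14 (adjusted p 3.54e-05), and 21.2% of its exon bases are shared with opposite-strand genes. None of these 4 genes overlapped between the control groups. They were chosen for the largest called differences, so this describes them and adds no support.

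In the other direction, ATF3 was at 10.3, 9.66 and 5.05 RPKM in KYSE150 controls against 1.27, 1.29 and 1.84 in KYSE510 controls. The KYSE150 mean was 5.69 times as high and the fitted difference -2.12 ± 0.34 (log2, SE; limma adjusted p 0.00022). PPP1R15A was at 102, 88.0 and 76.9 RPKM against 29.004, 17.2 and 20.1, 4.02 times as high in KYSE150, with a difference of -2.01 ± 0.23 (adjusted p 1.42e-05). PSPH, which makes the last step to serine, was at 10.4, 13.5 and 13.8 RPKM against 4.08, 5.16 and 4.12, 2.82 times as high in KYSE150, with a difference of -1.40 ± 0.15 (adjusted p 8.77e-06). ASNS was at 5.40, 4.50 and 4.35 RPKM against 2.10, 1.71 and 1.57, 2.65 times as high in KYSE150, with a difference of -1.20 ± 0.17 (adjusted p 8.24e-05). Here too the control groups of all 4 genes were apart, and these genes were chosen in the same way.

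The 3 enzymes of serine synthesis were thus not ordered alike, PHGDH and PSAT1 being higher in KYSE510 and PSPH in KYSE150. All 6 amino acid and one-carbon enzymes were called, 4 higher in KYSE510 (PHGDH, PSAT1 0.61, SHMT2 0.43, MTHFD2 0.31) and 2 higher in KYSE150. Over all genes, 62.0% were called between the control lines. Of the 8 chaperones, CRELD2 was called higher in KYSE510, and HYOU1 (-0.65) and SDF2L1 (-0.77) higher in KYSE150. Of the DnaJ partners, DNAJB9 (-0.48) and DNAJC3 (-0.30) were called higher in KYSE150, and of the isomerases PDIA3 (0.49) was called higher in KYSE510. HERPUD1 (-0.69) was called higher in KYSE150 and ATF6 (0.25) in KYSE510.

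Of the usual readouts of the branches, HSPA5, DDIT3, XBP1 and ATF4 were not called between the lines. HSPA5 had a difference of -0.51 with a 95% interval of -0.99 to -0.04 and a limma adjusted p of 0.0589, and DDIT3 one of -0.48 with an adjusted p of 0.0776. XBP1 differed by 0.14 (-0.25 to 0.53, adjusted p 0.509) and ATF4 by 0.11 (-0.27 to 0.48, adjusted p 0.604).

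**Figure D5:**
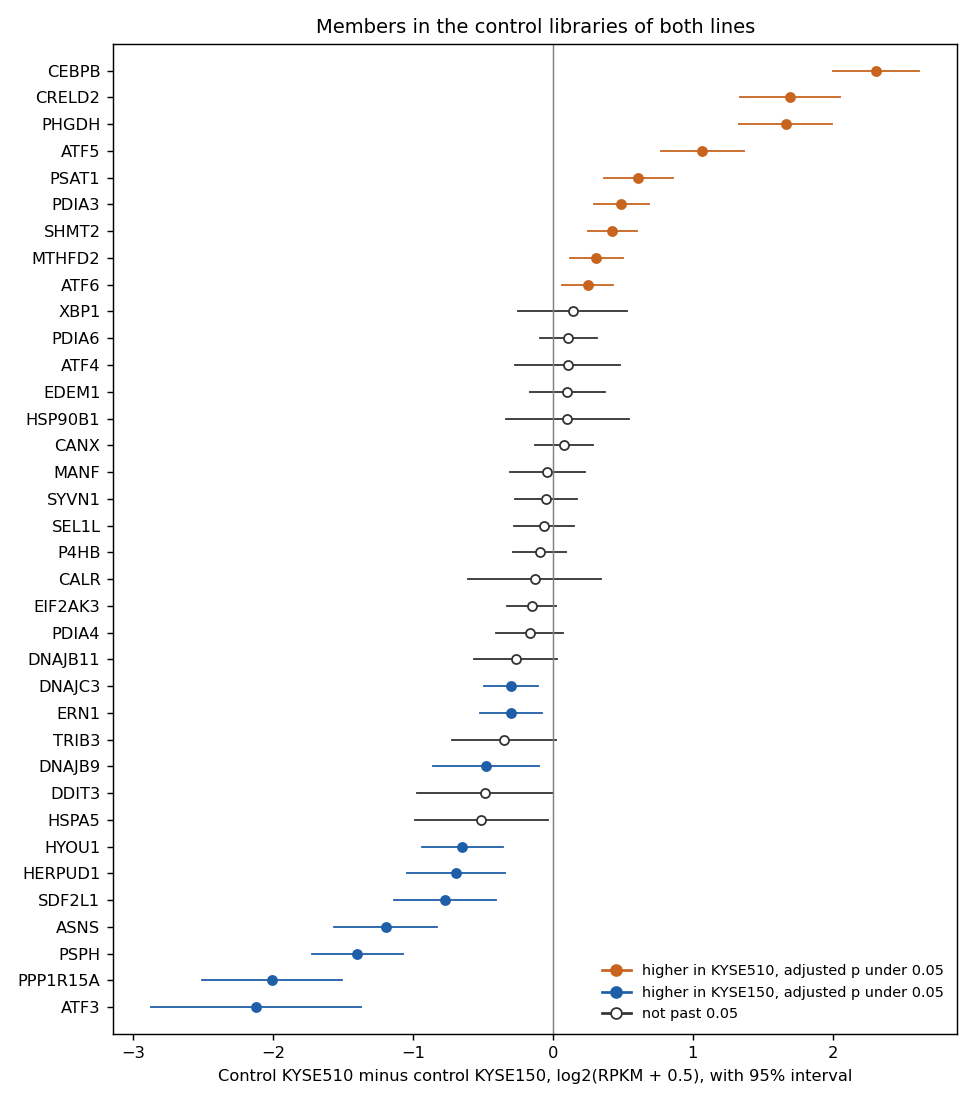
Difference between the control lines, KYSE510 minus KYSE150, on the log2(RPKM + 0.5) scale for the 36 tested members, with 95% intervals and filled points for a limma adjusted p under 0.05. CEBPB lies at 2.31 and ATF3 at -2.12, and 19 members are past the threshold.

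A wider list of 70 other genes of the same pathways was read from the same fit, 67 of which were tested. Limma called 0 of them for silencing in either line, averaged or for the difference, with 20, 7, 9 and 15 at an unadjusted p under 0.05. These are 29.9%, 10.4%, 13.4% and 22.4% of the 67, beside 18.1%, 6.35%, 11.5% and 12.2% of all genes. Their median change was 0.13 in KYSE150 and -0.09 in KYSE510. With the replicate block, 6 rose in KYSE150: DERL1 and ATF6B of the ER branch, and DDIT4, SESN2, SLC1A4 and PYCR1 of the ATF4 branch. That is 8.96% of the 67, where the blocked fit called 5.04% of all genes higher. Averaged over the lines the blocked fit called DERL1, DDIT4 and SLC1A4 higher and EIF2B2, a subunit of the exchange factor that PERK signalling inhibits, lower, 5.97% of the 67 beside 2.74% of all genes. Between the control lines 46 of the 67 were called, 25 higher in KYSE510 and 21 higher in KYSE150. Setting aside 4 that reached the testing level in 1 line only, NUPR1 among them, leaves 43 of 63 (68.3%, beside the 58.1% of all genes above), 23 and 20 in those directions.

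The 3 largest of these differences in favour of KYSE510 were in genes of the ATF4 branch of the list. Calls in that branch went both ways, 14 of its 32 tested genes being higher in KYSE510 and 12 higher in KYSE150. Over all genes, 28.3% were called higher in KYSE510 and 33.7% higher in KYSE150. NUPR1, CBS and GDF15 are among the 32 and did not reach the testing level in both lines. PYCR1, a proline synthesis enzyme, was at 21.7 ± 2.71 RPKM in KYSE510 controls and 2.01 ± 0.192 (SD, n = 3) in KYSE150 controls, a difference of 3.14. NUPR1, a stress-induced chromatin regulator, was at 2.88 ± 0.369 RPKM and 0.0194 ± 0.00951, a fitted difference that ran from 1.92 to 7.02 with the pseudocount or the use of recovered reads. SLC7A11, the cystine carrier, was at 7.24 ± 1.06 RPKM and 0.849 ± 0.379, a difference of 2.55. Higher in KYSE150 were CREB3L2, an ER-anchored transcription factor (-2.07), and UFM1, a ubiquitin-like modifier used at the ER (-1.19). CTH (-1.06), an enzyme of cysteine synthesis in the ATF4 branch, was also higher in KYSE150. The 5 other than NUPR1 were past limma's threshold, with adjusted p from 5.2e-09 to 0.000492. NUPR1 reached the testing level only through KYSE510, so its values are a description.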

How the data were processed

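RNA sequencing data of 12 libraries in 4 groups of 3 were used. Per the submitters' processing notes, HISAT2, DESeq and GRCh38 were used. The deposited table gives RPKM made by the authors and, per the file headers, exon positions in the layout of featureCounts. The annotation release, the use of strand and any filter are not given in the sources used here. RPKM times exon length gave whole reads (within 0.01) for at least 99.7% of values in each library.

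Groups came from the labels, and replicate numbers from the titles. Values of log2(RPKM + 0.5) were modelled by their 4 groups with limma 3.58.1 in R 4.3.3 (eBayes with trend, 8 residual degrees of freedom; 4 with a replicate block), on the 17823 genes that reached 0.5 RPKM in 3 or more libraries. P-values were two-sided, adjusted by Benjamini-Hochberg over those genes. Fold changes on this scale understate those of low genes. The script was tested on simulated data. Deviations from group means correlated at 0.147 to 0.415 in all 6 same-numbered pairs within a line. The 12 other pairs correlated at -0.385 to 0.184. The ranges overlap: KYSE150 control replicate 2 correlated at 0.147 with silenced replicate 2 and at 0.184 with silenced replicate 1. The numbers were taken to pair libraries from these values. Members, lists and tests were chosen with earlier results of these data known. Values in every library were given for the 3 members with the highest and the 3 with the lowest change in each line. The same was done for HSPA5, XBP1, ATF4, DDIT3 and ASNS. The 4 members most higher in each control line were named with their values in every control library. Any member called for silencing was also to be named. Of the other pathway genes, those called for silencing and the 3 largest in each direction between control lines were named. Promoter windows came from RefSeq on GRCh38.p14. The alternatives were other pseudocounts, filters, scalings, no trend, only the 6 libraries compared, voom on recovered reads, the replicate block, and leaving out each library.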

Additional observations from a re-analysis of the deposited data

How the results depend on the processing

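Over 36 named results of single genes and 792 alternative values, 766 kept their direction and side of the threshold, 17 passed it only under an alternative, 9 turned direction and 0 lost a call. The count of members called moved in KYSE150 from 0 to 2 with the replicate block and 10 with voom and the block, averaged over lines from 0 to 2 and for the difference from 0 to 7 with voom and the block. The replicate block changed no other call of a member. Leaving out each library gave 0 to 3 members in KYSE150, the 3 without control replicate 3. For the other pathway genes in KYSE150, 0 became 1 with centring, quantile normalization or voom, 6 with the block, 24 with voom and the block, and 0 to 9 on leaving out a library, the 9 again without control replicate 3. Averaged over lines, 0 became 1 with a filter of RPKM 1, 2 with centring, quantile normalization or voom, 4 with the block, 7 with voom and the block, and 0 to 2 on leaving out a library. With voom and the block, 3 were called in KYSE510 and 13 for the difference. Of all genes, voom with the block called 19.0% in KYSE150, 7.27% averaged over lines and 7.59% for the difference. Its share in KYSE510 is not given here. The block alone called 6.70% of all genes in KYSE150 and 2.74% averaged over lines. Without control replicate 3, 7.22% of all genes were called in KYSE150. Centring took the median change of members from 0.04 to -0.089 in KYSE150 and from -0.15 to 0.010 for the difference. These shifts follow the median of all genes, which centring moved by -0.13 and 0.16.

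Among the named results of single genes, directions turned only on leaving out a library. In KYSE150, HSPA5 ranged from -0.34 to 0.0072, DDIT3 from -0.37 to 0.086 and ASNS from -0.014 to 0.33. In KYSE510, HSPA5 ranged from -0.29 to 0.090, DDIT3 from -0.043 to 0.29 and ATF4 from -0.026 to 0.17. Between control lines, XBP1 ranged from -0.013 to 0.28 and ATF4 from -0.042 to 0.25. HSPA5 between control lines passed the threshold with voom (adjusted p 0.0351), without KYSE150 silenced replicate 3 (0.0385) and without KYSE510 control replicate 2 (0.0179). DDIT3 between control lines passed it with only the 6 libraries compared (adjusted p 0.0482), without KYSE150 silenced replicate 3 (0.0262) and without KYSE510 control replicate 1 (0.0353). The control-line count of 19 members ran from 15 to 21 over its alternatives. The cause of the changed calls was not tested. Each group held 3 libraries, and the parts of their number and of depth in the precision were not tested. Genes as low as CHAC1 could not be tested.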
